A study of Mus musculus with 6 samples.

Results

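Of the 13535 genes in the deposited expression table, 9 were examined here, all transcription factors of pancreatic islet cells that the study's own panel of beta-cell identity genes does not hold: *Pax6*, *Isl1*, *Rfx6*, *Foxa2*, *Mnx1*, *Insm1*, *Glis3*, *Hnf4a* and *St18*. They were chosen by symbol, and each of the 9 symbols matched 1 row. RNA came from beta-cells of adult male C57BL/6JRj mice, wild type (WT) in both groups, that had been sorted, reaggregated in microwells and cultured for 5 days, then sorted again by FACS. In pseudo-islets (3 samples) the beta-cells had been clustered with alpha- and delta-cells, and in pseudo-beta (3 samples) the clusters held beta-cells alone. Experiments 35, 36 and 37 each gave 1 sample of either kind. The labels do not say how many animals went into a sample, so the p-values measure the spread between these samples. The comparison addresses whether RNA levels of these factors in the sorted samples differ between culture with and without alpha- and delta-cells.

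The signal is normalized counts, that is, estimated read counts per gene divided by a library size factor, which the authors computed. It sums to between 17994346 and 19635287 per library, the 9 factors take 0.0694% to 0.1001% of it, and the number of reads behind a library is not known. The 9 beta-cell markers (*Ins1*, *Ins2*, *Iapp*, *Ucn3*, *Slc2a2*, *G6pc2*, *Mafa*, *Pdx1* and *Nkx6-1*) were present in all 6 libraries. Together they held at least 6937580 normalized counts per library, most of it *Ins2*, so the sum says little on the others. *Mafa*, the least abundant of them, ran from 368 to 1692. The sorted cells also carried hormone transcripts of other islet cells. *Gcg* ran from 941 to 2094 normalized counts in pseudo-islets and from 0 to 36.1 in pseudo-beta, and *Sst* from 146 to 210.2 against 0 to 4.74, both called higher in limma (adjusted p = 0.0437 and 0.0189). *Ppy* and *Pyy*, hormone genes of PP-cells, were abundant in both groups. *Ppy* ran from 383 to 4172 in pseudo-islets and from 219 to 1650.1 in pseudo-beta, and *Pyy* from 275 to 1328 against 109 to 832, and both were called higher only with the experiment as a block (adjusted p = 0.00267 and 0.0259 in limma, against 0.990 and 0.983 without it).

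Pancreatic endocrine cells keep their identity through a network of transcription factors that bind the enhancers of hormone genes, of secretory genes and of each other. *Pax6* (paired box and homeodomain), *Isl1* (LIM homeodomain), *Rfx6* (winged helix of the RFX family), *Foxa2* (forkhead), *Insm1* (zinc finger) and *St18* (a zinc-finger protein of the Myt family) are expressed across islet endocrine cell types, so their transcripts do not mark beta-cells alone. *Mnx1* is a homeodomain factor needed for beta-cell fate, and *Glis3* is a zinc-finger activator of the insulin gene. *Hnf4a* is a nuclear receptor whose human gene is mutated in a form of monogenic diabetes. Because the RNA is from bulk samples, fewer cells that express a factor and less of its RNA per cell cannot be told apart.

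The sequences in front of the transcription start are shown for *Isl1* and *Pax6*, the 2 factors with the smallest p-values when samples were paired by experiment, and for *Glis3*, the one that was higher in pseudo-islets in each experiment. They are the 150 bases before the start, 5′ to 3′ on the gene's strand, from RefSeq on GRCm38.p6, whose table has 7 of the 9 factors in 11 windows. *Insm1* and *St18* were not matched. Capitals mark CCAAT boxes (CCAAT), GC boxes (GGGCGG), cAMP response elements (CRE, TGACGTCA) and their half-sites (TGACG), each read on both strands, and a full CRE holds a half-site on each strand. The *Isl1* stretch lies at chr13:116309689-116309838 on the minus strand, the *Pax6* stretches at chr2:105668746-105668895 and chr2:105682313-105682462 on the plus strand, and that of *Glis3* at chr19:28680078-28680227 on the minus strand.
Isl1: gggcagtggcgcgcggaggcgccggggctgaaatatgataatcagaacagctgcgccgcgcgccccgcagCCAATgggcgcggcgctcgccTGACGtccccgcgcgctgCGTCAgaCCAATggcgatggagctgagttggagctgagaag
Pax6, first start: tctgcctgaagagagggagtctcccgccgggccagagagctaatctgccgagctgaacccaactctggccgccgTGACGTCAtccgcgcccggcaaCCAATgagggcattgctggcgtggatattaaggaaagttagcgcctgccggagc
Pax6, second start: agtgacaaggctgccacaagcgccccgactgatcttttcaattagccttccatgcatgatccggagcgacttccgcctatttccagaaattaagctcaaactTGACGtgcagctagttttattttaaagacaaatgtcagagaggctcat
Glis3: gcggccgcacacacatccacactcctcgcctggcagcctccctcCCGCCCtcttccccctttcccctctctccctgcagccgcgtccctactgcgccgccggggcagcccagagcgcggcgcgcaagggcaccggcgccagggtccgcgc

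The first *Pax6* start has a full CRE that begins 76 bases before it and a CCAAT box 54 bases before it. In *Isl1*, half-sites begin 59 and 41 bases before the start, the second of them on the other strand, between CCAAT boxes at 80 and 34. The second *Pax6* start has a half-site 48 bases before it and another at 187, outside the stretch shown. The *Glis3* window has 3 GC boxes, 219, 203 and 106 bases before the start, and neither a half-site nor a CCAAT box. Of 32851 mouse windows of 300 bases, 250 before and 50 after a start, 1.79% hold the full CRE, 20.8% a half-site, 37.4% a CCAAT box and 35.7% a GC box. TATAAA, searched as well, is in 13.6% of the windows, and among the factors only in 1 of the *Foxa2* windows. These matches describe letters and were not tested as binding sites.

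The 9 factors differed widely in level. Set per kilobase of the union of annotated exons, *Isl1* stood highest at 1129 ± 162 normalized counts per kilobase (SD over the 6 libraries) and *Hnf4a* lowest at 16.6 ± 3.15. Among all genes with a length, *Isl1* was at percentile 95.5 and *Hnf4a* at percentile 24.1. Between them came *Pax6* (446 ± 75.5), *Rfx6* (429.8 ± 92.5), *St18* (363 ± 53.0), *Foxa2* (195 ± 42.2), *Insm1* (173 ± 72.1), *Mnx1* (37.4 ± 13.5) and *Glis3* (31.6 ± 8.48), all per kilobase. The order falls into steps. *Isl1* exceeded *Pax6*, *St18* exceeded *Foxa2* and *Insm1* exceeded *Mnx1* in 6 of 6 libraries with no overlap of their ranges, and *Glis3* exceeded *Hnf4a* in 6 of 6 libraries although the ranges overlap. Neighbours inside a step did not separate. *Pax6* was above *Rfx6* in 3 of 6 libraries, *Rfx6* above *St18* in 5, *Foxa2* above *Insm1* in 4 and *Mnx1* above *Glis3* in 4.

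The order depends on the length that is used. With the longest transcript in place of the exon union, *Pax6*, whose annotated exons span 11694 bases in union and 4427 in the longest transcript, rose to 1179 per kilobase and exceeded *Rfx6* in 6 of 6 libraries, and all 9 ranks stayed as they were, although the ranges of *Isl1* and *Pax6* then overlap. With the mean length of the coding transcripts, 5 of the 9 ranks stayed, because *St18* passed *Rfx6* and *Glis3* passed *Mnx1*. On the exon-union scale the study's panel factors stood at 2219 (*Neurod1*), 2112 (*Nkx6-1*), 1721 (*Pdx1*), 377 (*Nkx2-2*) and 338 (*Mafa*) per kilobase. *Isl1* was therefore below the 3 most abundant panel factors, and *Pax6*, *Rfx6* and *St18* lay near *Nkx2-2* and *Mafa*.

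**Figure D1:**
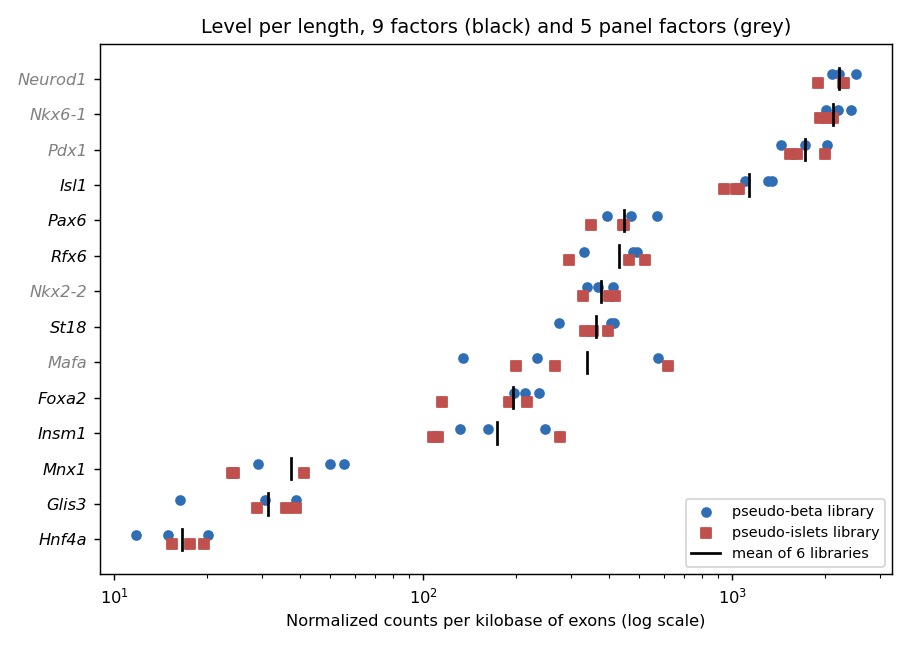
Normalized counts per kilobase of the exon union (x axis, log scale) of the 9 factors (black names) and the 5 panel factors (grey names), with 1 point per library and a bar at the mean of 6 libraries. *Isl1*, at 1129, stands apart from the other 8, while *Mnx1*, *Glis3* and *Hnf4a* lie between 16.6 and 37.4.

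None of the 9 factors was called between pseudo-islets and pseudo-beta. Fitted in limma to log2(value + 1) with group as the only term, and with p adjusted by Benjamini-Hochberg over the whole table, their lowest adjusted p was 0.901 (*Isl1*), against 8 of 13535 genes called, 0.0591%. With the experiment number as a replicate block, so that samples were set against their partner from the same experiment, the lowest adjusted p was 0.224 (again *Isl1*), against 73 genes called, 0.539%. At an unadjusted p of 0.05, 1 factor passed without the block, where 5.40% of all genes did, and 2 passed with it, where 11.9% did. The median log2 fold change of pseudo-islets over pseudo-beta was -0.20 for the 9 factors and 0.01 for all genes. It was below 0 for 6 of the 9 factors and for 48.6% of all genes. For a single gene, the smallest p that an exact two-sided permutation test can give with 3 unpaired samples in either group is 0.1. With the samples paired by experiment that smallest p is larger.

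*Isl1* (ENSMUSG00000042258, chromosome 13 of GRCm38, 116298281 to 116309689, no overlapping gene) is the LIM homeodomain factor that maturing and adult beta-cells need for insulin secretion. In the order of experiments 35, 36 and 37, pseudo-islets held 4075, 3724 and 4168 normalized counts and the matching pseudo-beta 5325, 5179 and 4357. All 3 pseudo-islets values were below all 3 pseudo-beta values, the only one of the 9 factors for which the groups did not overlap, while 10.8% of all genes do not overlap. The gap was wide in experiments 35 and 36, with log2 ratios of -0.39 and -0.48, and narrow in experiment 37 at -0.06. The fitted log2 fold change was -0.31 (SE, standard error, of 0.13 with unadjusted p = 0.0354 and adjusted p = 0.901 in limma). Its 95% interval ran from -0.59 to -0.03, below 0 in this fit, with a fall of at most 33.6%. The interval reached above 0 with no variance trend (-0.71 to 0.09). It also did so when pseudo-islets 35 or 36, or pseudo-beta 35 or 36, was left out. With the block the standard error was 0.09 and the interval -0.51 to -0.10 (unadjusted p = 0.00688, adjusted p = 0.224 in limma). The blocked interval reached just above 0 (-0.45 to 0.00056) when experiment 36 was left out. Under 16 alternatives its log2 fold change ran from -0.43 to -0.22, and no alternative gave it an adjusted p under 0.158. Because the groups do not overlap, only the changes of scaling could have turned its sign. The other alternatives could not.

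*Pax6* (ENSMUSG00000027168, chromosome 2, 105668900 to 105697364) maintains insulin expression and represses the genes of other endocrine cells in the adult beta-cell. Its levels were 5226, 5198 and 4093 normalized counts in the pseudo-islets samples, and 6688, 5506 and 4597 in their partners. Each experiment had the lower value in pseudo-islets, yet the groups overlap, because the pseudo-beta of experiment 37 lay below the pseudo-islets of experiments 35 and 36. The log2 fold change was -0.20 (SE 0.16 and adjusted p = 0.992 in limma), with an interval of -0.56 to 0.16 without the block and -0.38 to -0.02 with it (adjusted p = 0.362 in limma). With 1 library left out it ranged from -0.34 (without pseudo-beta 37) to -0.07 (without pseudo-beta 35), and it was -0.09 without pseudo-islets 37. The blocked interval reached above 0 when experiment 35 (-0.35 to 0.10) or experiment 37 (-0.44 to 0.0045) was left out. The antisense gene *Pax6os1* overlaps *Pax6* and had 351 to 413 normalized counts in pseudo-islets and 391 to 478 in pseudo-beta, which gives a log2 difference of -0.20 (SE 0.18). Whether the counting used the strand is not given in the sources used here, so reads of the overlapping parts may not be told apart.

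*Mnx1* (ENSMUSG00000001566, chromosome 5, 29473034 to 29478470, no overlapping gene) had the largest fitted change of the 9, at a low level. It stood at 54.0, 55.1 and 92.5 normalized counts in pseudo-islets, against 113, 65.6 and 125 in pseudo-beta. It was lower in pseudo-islets in each experiment, by a log2 ratio of -1.04 in experiment 35, -0.25 in experiment 36 and -0.43 in experiment 37, and the groups overlap. The log2 fold change was -0.57 (SE 0.37 and adjusted p = 0.976 in limma). The interval, -1.39 to 0.24 and with the block -1.25 to 0.11, allows anything from a fall of 61.8% to a rise of 18.4%. With 1 library left out the log2 fold change ranged from -0.85 (without pseudo-beta 36) to -0.40 (without pseudo-beta 37). Of the 9 factors, *Isl1*, *Pax6* and *Mnx1* were lower in pseudo-islets in 3 of 3 experiments, which held for 15.0% of all genes. *Glis3* alone was higher in 3 of 3, as were 18.1% of all genes.

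*Foxa2* (ENSMUSG00000037025, chromosome 2, 148042877 to 148046969, no overlapping gene), a pioneer factor that opens chromatin at pancreatic and beta-cell genes, stood at 274, 449.9 and 513 normalized counts in pseudo-islets, against 465, 561 and 507 in pseudo-beta. The difference was marked in experiment 35 (log2 ratio -0.76), smaller in experiment 36 (-0.32) and near 0 in experiment 37 (0.02). The log2 fold change was -0.35 (SE 0.24 and adjusted p = 0.989 in limma), with an interval of -0.89 to 0.19, and -0.74 to 0.03 with the block. It came to -0.08 without the pseudo-islets of experiment 35.

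*Glis3* (ENSMUSG00000052942, chromosome 19, 28258851 to 28680077, overlapped by 2 genes not analysed here) stood at 318, 256 and 343 normalized counts in pseudo-islets, against 273, 145 and 342 in pseudo-beta. The pseudo-beta of experiment 36 was the lowest of the 6, and the log2 ratio was 0.81 in that experiment, 0.22 in experiment 35 and 0.00 in experiment 37. The log2 fold change was 0.35 (SE 0.31 and adjusted p = 0.998 in limma) and became -0.01 without that library. *Hnf4a* (ENSMUSG00000017950, chromosome 2, 163506808 to 163572910, overlapped by *Hnf4aos* on the other strand and *Gm25881* on the same strand, neither analysed here) had the lowest level per kilobase, with 94.5, 74.3 and 85.2 normalized counts in pseudo-islets, against 96.9, 56.8 and 72.2 alone. The groups overlap, and the log2 fold change of 0.19 (SE 0.32 and adjusted p = 0.998 in limma) ranged from 0.01 to 0.39 with 1 library left out.

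*Rfx6*, *St18* and *Insm1* showed differences in both directions among the experiments. *Rfx6* (ENSMUSG00000019900, chromosome 10, 51677756 to 51730432), required for islet development and for the mature state of beta-cells, stood at 2089, 1859 and 1191 normalized counts in pseudo-islets, against 1967, 1909.97 and 1325 in pseudo-beta. Within each experiment the values lay close together, at log2 ratios of 0.09, -0.04 and -0.15. *St18* (ENSMUSG00000033740, chromosome 1, 6487231 to 6860940) stood at 2559.8, 2151 and 2291 in pseudo-islets, against 2679, 2613 and 1783 in pseudo-beta, so it was lower in pseudo-islets in experiments 35 and 36 and higher in experiment 37. *Insm1* (ENSMUSG00000068154, chromosome 2, 146221921 to 146225020), which acts in endocrine differentiation and secretory granule biology, stood at 334, 346 and 857 in pseudo-islets, against 503, 408 and 766 in pseudo-beta. Here too experiment 37 was the one with the higher value in pseudo-islets. The log2 fold changes were -0.04 (SE 0.23) for *Rfx6*, 0.00 (SE 0.17) for *St18* and -0.22 (SE 0.36) for *Insm1*. The adjusted p was 0.998 for *Rfx6* and *Insm1* and 0.999 for *St18* in limma, and leaving out single libraries turned each sign. *Rfx6* came out above 0 when pseudo-islets 37 (0.21), pseudo-beta 35 (0.07) or pseudo-beta 36 (0.05) was left out. *Insm1* came out above 0 when pseudo-islets 35 (0.01) or pseudo-beta 37 (0.03) was left out, and *St18* below 0 when the same libraries were left out (-0.06 and -0.18).

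**Figure D2:**
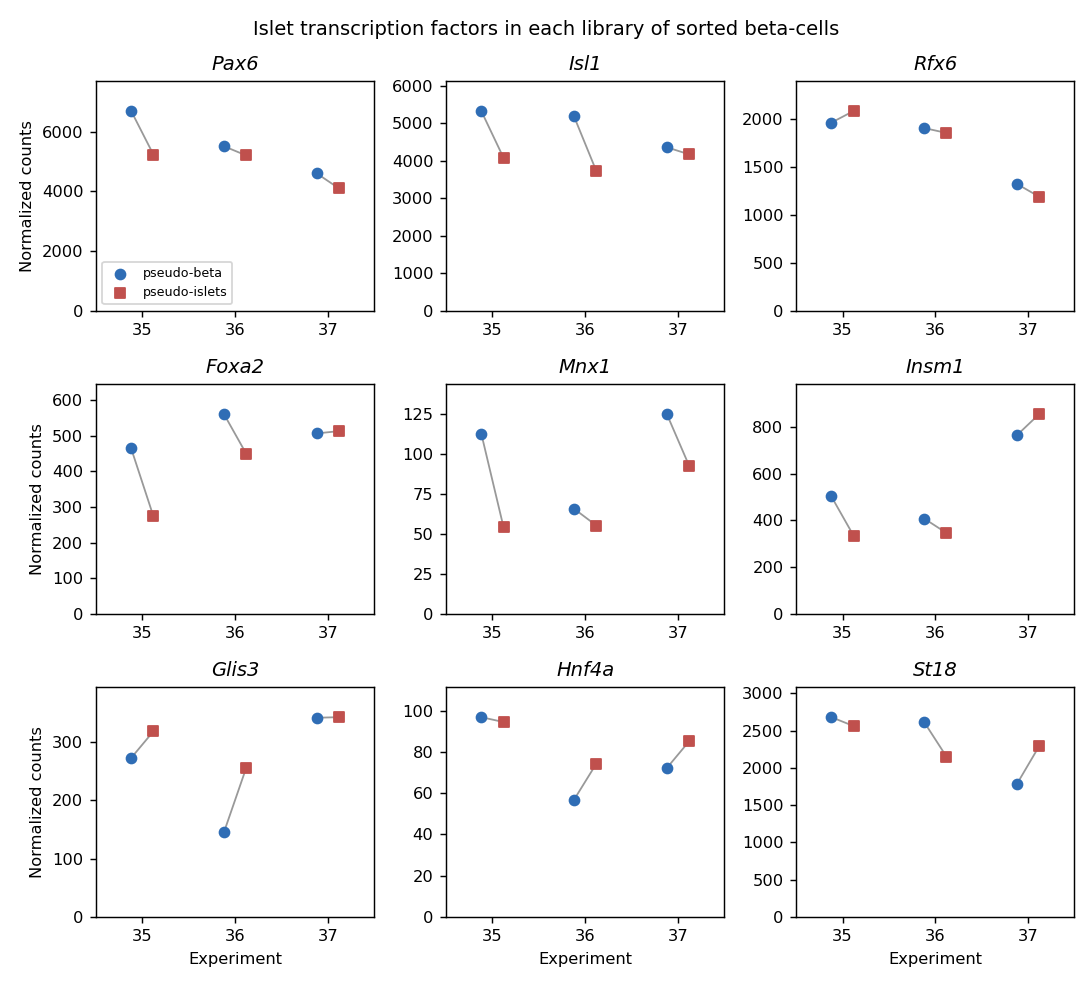
Normalized counts (y axis, from 0, a separate scale per gene) of the 9 factors in experiments 35, 36 and 37 (x axis), with circles for pseudo-beta, squares for pseudo-islets, and a line joining the samples of one experiment. The 3 squares of *Isl1* all lie below its 3 circles, and for the other 8 factors the groups overlap.

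The intervals give an upper bound on the change that 3 samples a group could have missed. Without the block, the 95% interval of 3 of the 9 factors lay wholly within a 1.5-fold change in either direction, those of *Pax6*, *Rfx6* and *St18*, and this held for 27.3% of all genes. With the block it held for 4, *Isl1* being the fourth, and for 42.0% of all genes. Without the block *St18* had the tightest bound, at most 1.31-fold either way without the block and 1.204-fold with it. *Rfx6* was bounded at 1.46-fold and 1.19-fold, *Pax6* at 1.48-fold and 1.303-fold, and *Isl1* at 1.51-fold and 1.43-fold. The intervals of the less abundant factors allow larger changes. The bounds were 1.86-fold and 1.67-fold for *Foxa2*, 2.03-fold and 1.503-fold for *Insm1*, 2.04-fold and 1.73-fold for *Glis3*, 1.87-fold and 1.80-fold for *Hnf4a* and 2.62-fold and 2.38-fold for *Mnx1*, each time without and with the block. Standard errors were also set beside those of genes of like level. For genes within 1.2-fold of the mean of *Mnx1* the median standard error was 0.36, and for those of *Isl1* it was 0.14, near their own 0.37 and 0.13. *Insm1* (0.36 against 0.20) and *Rfx6* (0.23 against 0.16) varied more than their neighbours in level without the block.

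**Figure D3:**
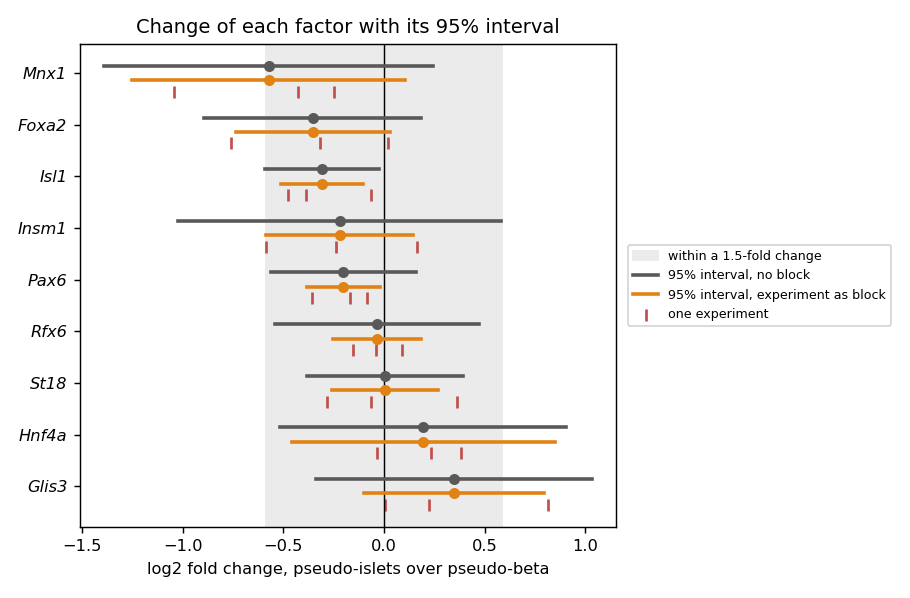
Log2 fold change of pseudo-islets over pseudo-beta (x axis) for the 9 factors, with points and bars for the fitted value and its 95% interval without a block (grey) and with the experiment as a block (orange), and red ticks for the log2 ratio in each experiment. The shaded band is a change of less than 1.5-fold, which holds both intervals of *Pax6*, *Rfx6* and *St18* and the blocked interval of *Isl1*.

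Some of the factors differed between the experiments. The fit with group and experiment called 3 of the 9 for the experiment term (limma, p adjusted by Benjamini-Hochberg over the whole table), *Rfx6* (adjusted p = 0.0152), *Insm1* (adjusted p = 0.0168) and *Pax6* (adjusted p = 0.0482), while 6.32% of all genes were called. Experiment 37 stood apart in all 3. The mean of its 2 libraries was 811 normalized counts for *Insm1*, against 419 and 377 in experiments 35 and 36. For *Rfx6* it was 1258 against 2028 and 1884, and for *Pax6* 4345 against 5957 and 5352. *Insm1* was thus high where *Rfx6* and *Pax6* were low, in pseudo-islets and pseudo-beta alike. *Isl1* had the smallest ratio of highest to lowest experiment mean among the 9, 1.10, with means of 4700.2, 4451 and 4263 and an adjusted p of 0.733 for the experiment term in limma. Of the 5 panel factors only *Mafa* was called for the experiment term, and it too was high in experiment 37.

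The calls for the experiment term changed with the libraries kept and with the variance model. The count was 0 when either library of experiment 37 was left out. It was 1 without pseudo-islets 35, 2 without pseudo-beta 35, 3 without pseudo-beta 36 and 4 without pseudo-islets 36. When the variance was not allowed to trend with level, the count was 0. Leaving a library out also leaves less data for the test, and the part of this in the counts was not tested. The share of normalized counts from the 15 genes of the mitochondrial genome was also higher in experiment 37, at 1.305% in pseudo-islets and 1.496% in pseudo-beta, against 0.726% to 0.864% in the other 4 libraries. Its part in the result was not tested.

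**Figure D4:**
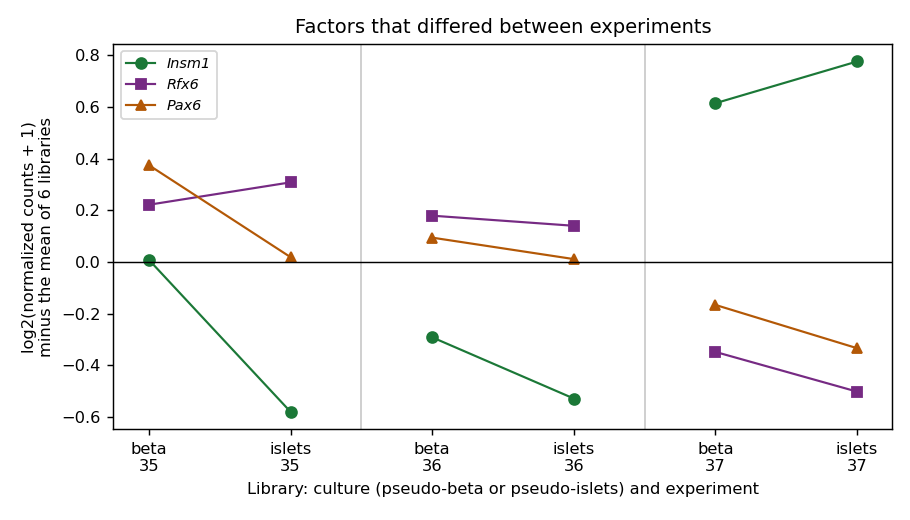
Log2(normalized counts + 1) of *Insm1*, *Rfx6* and *Pax6* in each library, minus the gene's mean over 6 libraries (y axis), by culture and experiment (x axis), with lines joining the samples of one experiment. In experiment 37 both libraries lie above 0 for *Insm1* and below 0 for *Rfx6* and *Pax6*.

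Other factors of the islet network were set beside the 9. None of the 5 panel factors was called with or without the block, and their median log2 fold change was 0.00. Of 30 further islet factors and cofactors, 22 were in the table and none was called in either fit. Their median log2 fold change was -0.22, with 17 of the 22 below 0. The lowest was that of *Esrrg*, a nuclear receptor of mature beta-cells, which stood at 88.5, 167 and 92.8 normalized counts in pseudo-islets, against 199, 262 and 182 in pseudo-beta. Its groups did not overlap, and its log2 fold change was -0.92 (SE 0.31 and adjusted p = 0.848 in limma and 0.143 with the block). The highest was that of *Etv5*, an ETS factor, at 0.31 (SE 0.37 and adjusted p = 0.998 in limma). By normalized counts *Tshz1* was the most abundant of the 22, with a mean of 2202, and *Neurog3*, the factor of endocrine progenitors, the least, with a mean of 21.8.

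Relatives of the 9 factors by protein family were read too. Of 17 family members, 10 were in the table, none was called in either fit, and 5 lay below and 5 above 0. *Rfx7* had the lowest log2 fold change, -0.50 (SE 0.25 and adjusted p = 0.949 in limma), and *Rfx1* the highest, 0.36 (SE 0.63), on 6.88 to 33.2 normalized counts. *Myt1l*, with a mean of 589 normalized counts, was the most abundant relative and *Rfx1* the least. *Foxa3*, a relative of *Foxa2*, had 135 to 190.1 normalized counts, and *Hnf4g*, a relative of *Hnf4a*, had 38.9 to 69.0.

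Genes known to depend on factors of this network in beta-cells were split evenly in sign, 8 below and 8 above 0. All 16 were in the table. None was called without the block, and 2 were called with it, both higher in pseudo-islets, against 0.539% of all genes. At an unadjusted p of 0.05 in limma, 3 passed without the block, where 5.40% of all genes did. With the block 9 passed, in both directions, where 11.9% did. The groups did not overlap for 4 of the 16, against 10.8% of all genes. The list was chosen with earlier results of these data known. *Ero1lb*, an oxidase of proinsulin folding also named *Ero1b*, stood at 27724, 31789 and 30096 normalized counts in pseudo-islets, against 19067, 22656 and 19420 in pseudo-beta. The fitted change, 0.55 on the log2 scale (SE 0.12 and adjusted p = 0.372 in limma), had an adjusted p of 0.00204 with the block, and its groups did not overlap. *Pcsk1*, the prohormone convertase, had 15813, 13400 and 12644 in pseudo-islets against 11265, 10927 and 8881, with no overlap. Its log2 fold change was 0.43 (SE 0.14 and adjusted p = 0.781 in limma and 0.0279 with the block). It is also among the genes that the study chose on these samples. The lowest of the 16 was *Cacna1a*, a voltage-gated calcium channel gene, at -0.34 (SE 0.36), and *Cacna1c* was near it at -0.34 (SE 0.32). *Ins2* was the most abundant and *Cacna1a* and *Cacna1c* the least, with means of 143 and 148. The median of the 16 was 0.02.

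Markers of other cells were read beside the factors because several of the 9 are shared with alpha- and delta-cells. Summed over the 5 of 10 alpha-cell markers in the table, pseudo-islets held 5994 to 10206 normalized counts and pseudo-beta 3395 to 4690.0, most of it *Ttr*, which was called higher with the block (adjusted p = 0.0303 in limma) and not without it (0.848). The 2 of 5 delta-cell markers held 369 to 532 against 249.5 to 273, and the 2 of 3 PP-cell markers 658 to 5500.2 against 328 to 2482. These sums were higher in pseudo-islets, and the part of other islet cells in the values of the 9 factors was not tested.

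Markers of cells from outside the endocrine lineage differed in level. None of 8 acinar and none of 6 stromal markers was in the table, and of 6 endothelial markers only *Esam* was, at 41.4 to 89.5 normalized counts. Of 6 immune markers the table had *Cd68*, at 3.74 to 18.6, and *C1qa*, at 1649 to 2661 in pseudo-islets and 977 to 1412 in pseudo-beta. *C1qa* had a log2 fold change of 0.97 (SE 0.21 and adjusted p = 0.379 in limma and 0.00305 with the block). Of 6 duct markers 4 were in the table, none called, with a sum of 4559 to 7100.1 normalized counts per library, most of it *Krt7* (3906 to 6626), while *Krt19* had 3.51 to 50.02 normalized counts.

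The 3 genes whose profile over the 6 libraries was most like the mean profile of the 9 factors, among the 10568 genes that averaged 50 normalized counts or more, were *Dsp* (Pearson's r = 0.991), *Gm12346* (0.989) and *Tmem179b* (0.988). These are correlations over 6 libraries that share 3 experiments, and they are given as a description only.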

How the data were processed

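Total RNA (5 ng per library) was sequenced as pairs of 75 bases. Per the labels and the study's methods, the authors aligned reads to GRCm38 with STAR 2.7.6a, estimated counts per gene with RSEM 1.3.1 and divided them by DESeq2 1.26.0 size factors, and the deposited signal is these normalized counts. The annotation release, the filter and the strand setting are not given in the sources used here. Every one of the 13535 genes has at least 10 normalized counts in 3 or more libraries. The values are not whole reads, so no count model was used. Columns with the authors' fold changes and p-values were not used.

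Log2(value + 1) was fitted in limma 3.58.1 (R 4.3.3) with a variance trend, group as the only term, and Benjamini-Hochberg adjustment over all genes (threshold 0.05). Intervals are at 95%. The experiment as a replicate block was fitted as the alternative. The experiment numbers, which come from the labels, were taken as pairing the samples. The sample titles do not say whether samples of one number share a preparation of islets. Deviations from the group means correlated at 0.119, 0.121 and 0.325 within experiments 35, 36 and 37 and at most 0.0922 between them. Only experiment 37 stood clearly apart by this measure. Other alternatives changed the pseudocount, the filter, the scaling, the variance trend, the gene length and the libraries used. Gene positions and lengths are from GENCODE M21 (13526 genes matched by ID).

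The 9 factors are always named, and of the lists the genes called in either fit and the extremes of change and level. The members and lists were chosen with earlier results of these data known. Some listed genes are not reported here.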

Additional observations from a re-analysis of the deposited data

How the results depend on the processing

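None of the 9 factors was called under any of 16 alternatives (144 values, adjusted p from 0.158 to 1.00 in limma), and 132 of the 144 kept their direction. The other 12 are of 4 factors. With all libraries kept, the replicate block, the filter and the variance trend leave the fitted log2 fold change as it is, so they could not turn a direction. With libraries left out, log2 fold changes ranged from -0.218 to 0.207 for *Rfx6*, -0.664 to 0.0307 for *Insm1*, -0.00920 to 0.606 for *Glis3* and -0.185 to 0.109 for *St18*, and with an experiment left out under the block they were above 0 for *Rfx6* (0.0238) and below 0 for *St18* (-0.173) without experiment 37. *St18* was also at -0.0535 when scaled without the 10 most abundant genes and at -0.000223 when rescaled by the median of ratios. The 8 calls over all genes became 73 with the replicate block, 1 with a pseudocount of 0.1, 2 when scaled without the 10 most abundant genes, 2 with no variance trend and 0 to 13 with 1 library left out, and under the block they were 28, 73 and 45 without experiments 35, 36 and 37. The 3 factors with an interval within 1.5-fold became 1 with no variance trend and 1 to 3 with 1 library left out, being 1 when pseudo-islets 36 or pseudo-beta 37 was left out, and with the block added it was 3 to 6 when an experiment was left out. The 1 factor whose groups do not overlap became 1 to 4 with 1 library and 2 to 6 with an experiment left out, where fewer libraries make overlap less likely by construction. The listed genes called went from 0 to 2 with the replicate block, stayed 0 with 1 library left out, and were 1 to 2 with the block and an experiment left out. The 3 factors called for the experiment became 0 with no variance trend and 0 to 4 with libraries left out, and 5 of 9 ranks per kilobase stayed with the mean coding transcript. The cause of these shifts was not tested. The read depth is unknown, and 3 samples a group limit the precision. Apart from the listed genes and marker genes named in the report, the block changed no call on a gene named.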
